A study of Homo sapiens with 8 samples.

Results

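Plakins are very large proteins that tie cytoskeletal filaments to each other and to cell junctions, and simple-epithelium keratins are the intermediate filaments to which several of them bind. The genes described here are 7 plakin genes (EPPK1, PLEC, DSP, PPL, EVPL, MACF1 and DST) and 3 keratin genes (KRT8, KRT18 and KRT19), 10 of the 78932 gene identifiers counted. All 10 were among the 12618 genes that passed the filter on low counts. They were selected on the measured fold change of EPPK1, which was among the largest decreases of the series, and the rest by family. The fold change of EPPK1 is therefore given as a description without a test, and tests are given for the other 9 genes. Those 9 and the lists of partner genes below were also chosen with earlier results of these data known. Keratins work as pairs of a type II chain (KRT8) and a type I chain (KRT18 or KRT19), and this set is the one typical of simple epithelia such as the lining of the colon. Among plakins, desmoplakin (DSP) anchors keratin at desmosomes, periplakin (PPL) and envoplakin (EVPL) do so at cell borders, and plectin (PLEC) links filaments to hemidesmosomes. Epiplakin (EPPK1) is built of plakin repeats and binds keratin, while MACF1 and dystonin (DST) also bind actin and microtubules and are called spectraplakins.

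RNA came from dTAG-NUDT21 HCT116 cells, a human colorectal cancer line in which NUDT21 carries a degradation tag. NUDT21 is the small subunit of cleavage factor Im, which binds UGUA in nascent RNA upstream of poly(A) sites. The control group of 4 libraries received DMSO with JTE-607, an inhibitor of the cleavage nuclease CPSF73. The other 4 libraries are from cells treated with JTE-607 and dTAGV1, a degrader of tagged proteins. Thus every library carries the tag and JTE-607, and an effect of dTAGV1 without JTE-607 was not measured. Doses, times, the number of clones behind the line and whether replicates are separate cultures are not given in the sources used here, so that p-values measure the spread between these libraries, which may be technical.

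Each library held 3447842 to 4291256 reads counted to genes on the gene's strand. Levels are in CPM, counts in each 1000000 after TMM scaling. The libraries were made with a kit for transcript 3′ ends, so a level is not divided by length and genes are set side by side as numbers of reads. Where the reads lie within a gene was not checked. RNA of NUDT21 itself fell from 32.2 ± 2.81 to 8.25 ± 2.62 CPM (SD, n = 4 each). The tagged protein, on which dTAGV1 acts, is not measured by these counts. Epithelial markers were present: all 7 epithelial markers exceeded 1 CPM, with a summed level of 1055 to 1211 CPM with DMSO and 1037 to 1139 with dTAGV1. That sum includes KRT8 and KRT18, which are members of the set, and its parts went in different directions: mean levels went from 45.7 to 178 CPM for ELF3 and from 273 to 331 CPM for EPCAM, but from 168 to 121 CPM for CLDN4. Of 4 colon markers only CDX2 exceeded 1 CPM, and CDX1 was at 0 in all libraries. Of 5 fibroblast markers COL1A1 alone exceeded 1 CPM, and 4 blood markers summed to at most 1.37 CPM in a library. The 3 endothelial markers summed to 1.64 to 2.93 CPM with DMSO and 0.295 to 0.85 CPM with dTAGV1. Of the stratified-epithelium markers, KRT14 and TP63 were at 0 in all libraries and KRT5 had at most 1 count. In dTAGV1 replicates 1 and 2 unmapped reads were 30.3% and 29.9% of all reads, against 24.9% and 20.4% in dTAGV1 replicates 3 and 4 and 27.7% to 28.9% with DMSO.

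Because the perturbed complex acts at 3′ ends, the annotated ends of the genes were read from GENCODE 29 transcripts (GRCh38), taking for each gene the protein-coding transcript that reaches furthest. A poly(A) signal, AATAAA or ATTAAA on the transcript strand, lay in the last 50 bases of 8 of the 10, and in 78.6% of 10635 tested genes with such an end. The letters TGTA, UGUA in RNA, lay in the last 150 bases of 5 of the 10 genes (EPPK1, DSP, PPL, MACF1 and DST), against 66.5% of the same 10635 genes. PPL had 3 TGTA, while EPPK1, DSP, MACF1 and DST had 1 each. PLEC, EVPL and the 3 keratins had 0. These windows of 30 bases show the signals (in capitals) of 4 plakins and of the 3 keratins, 5′ to 3′ on the transcript strand:
DST: tagtatgcatttAATAAAacatattcactt
DSP: tgaagaaataccATTAAAaaactatttggt
PPL: ttatagcatgaaAATAAAcctggtggctgg
EVPL: catttctacaaaAATAAAattagctgggca
KRT8: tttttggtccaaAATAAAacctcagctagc
KRT18: gagcaggaggccAATAAAaagttcagagtt
KRT19: tcctgacctgccAATAAAaatttatggtcc
They lie at chr6:56457999-56458028 (DST, minus strand), chr6:7586670-7586699 (DSP, plus), chr16:4882524-4882553 (PPL, minus), chr17:76004512-76004541 (EVPL, minus), chr12:52897199-52897228 (KRT8, minus), chr12:52952870-52952899 (KRT18, plus) and chr17:41523623-41523652 (KRT19, minus). DSP is the only one of these 7 with ATTAAA. No signal was found in this window for MACF1 or EPPK1. Annotation lists 8 different protein-coding ends for DST and 6 for MACF1, more than for any of the other 8 genes, which have 1 to 5, beside a median of 3 over the tested genes. Which of these ends was used in these cells was not analysed here.

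With dTAGV1 the 2 spectraplakins rose while DSP, PPL, EVPL, KRT18 and KRT19 fell, and PLEC and KRT8 did not pass the test. Of the 9 genes other than EPPK1, 2 were higher and 5 lower, or 77.8% called at a Benjamini-Hochberg adjusted p below 0.05 in edgeR. The background is high: 57.9% of all tested genes were called, 29.4% as higher and 28.5% as lower. The median log2 fold change of the 9 genes was -0.43, against 0.01 over all tested genes. Libraries of the groups did not overlap for 7 of the 9, and for 50.9% of all tested genes. In bulk RNA, a change in the number of cells that express a gene and a change in RNA per cell cannot be told apart. Nor can these counts on annotated genes tell either from a change in which 3′ ends are used, which was not analysed here.

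**Figure D1:**
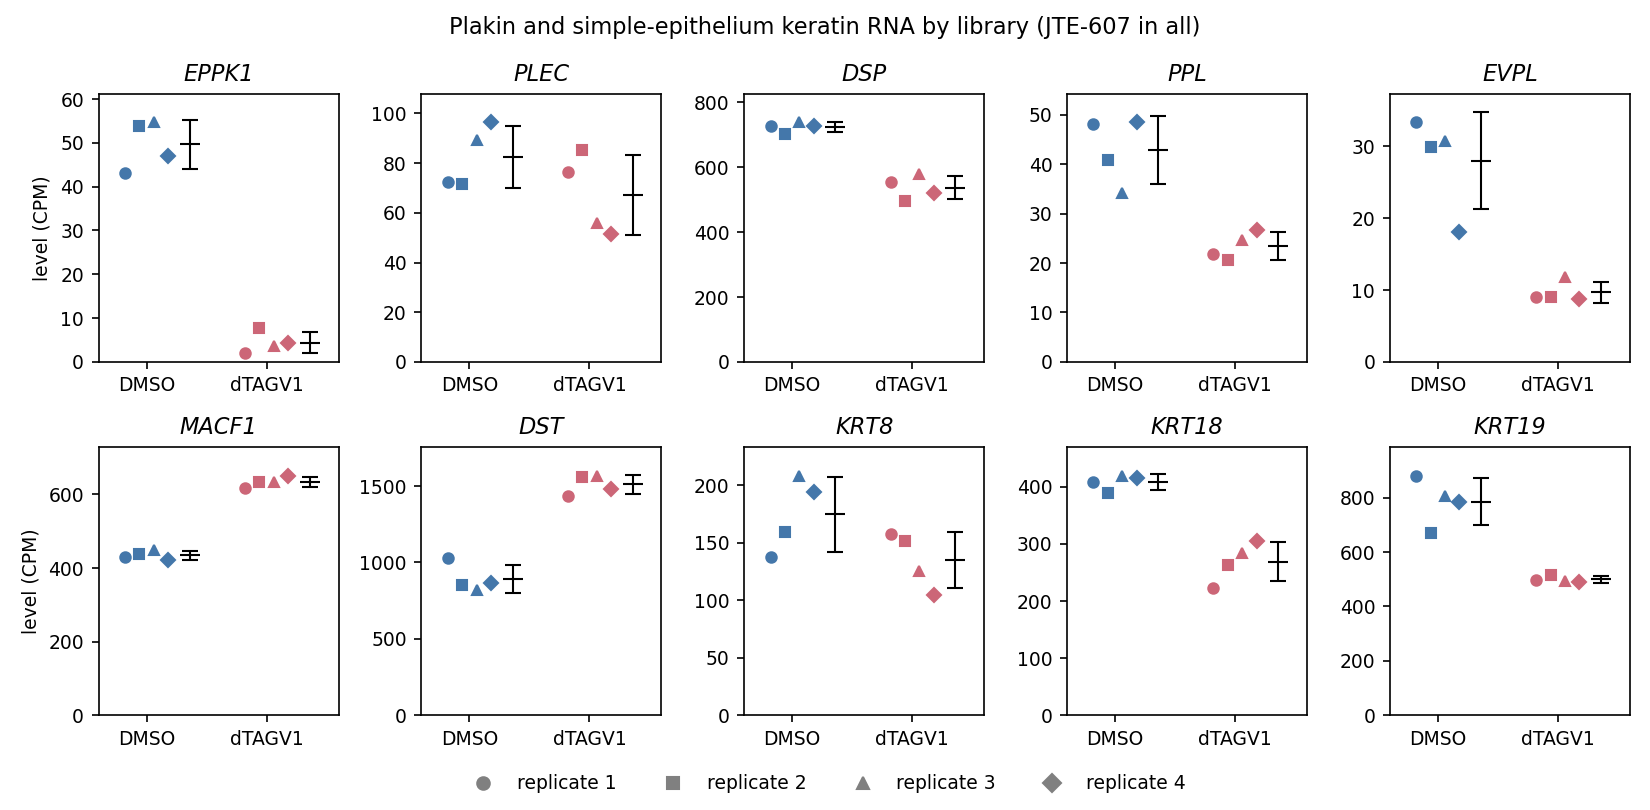
Level of each gene in CPM (vertical axes from 0, scaled per gene) in the 4 DMSO and 4 dTAGV1 libraries. Each point is a library, shaped by replicate number, and the bar beside the points is the mean ± SD. PLEC and KRT8 are the genes whose groups overlap.

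Dystonin had the highest mean level of the 10 in both groups. DST (ENSG00000151914; GRCh38 chromosome 6, 56457987 to 56954628, minus strand) stood at 1029, 850.4, 821 and 866 CPM in DMSO replicates 1 to 4, and at 1435, 1559.6, 1569 and 1478 CPM with dTAGV1. The lowest dTAGV1 library lay well above the highest DMSO library, which was replicate 1. DST had a log2 fold change of 0.76 ± 0.07 (SE, edgeR adjusted p = 2.35e-09), or 1.69-fold. MACF1 (ENSG00000127603; chromosome 1, 39081316 to 39487177, plus strand), its paralogue, which guides microtubule growth along actin, had 430.1, 438, 448 and 421 CPM with DMSO and 619, 634, 634 and 652 CPM with dTAGV1. Both groups were tight, with SDs of 11.7 and 13.4 CPM. MACF1 had a log2 fold change of 0.55 ± 0.06 (SE, edgeR adjusted p = 7.50e-08). Together the spectraplakins made up 60.1% ± 1.65 of the counts of the 6 plakins other than EPPK1 with DMSO, and 77.1% ± 1.17 of them with dTAGV1 (mean ± SD of 4 libraries). That share was 58.7% to 62.4% in DMSO libraries and 75.6% to 78.2% in dTAGV1 libraries, without overlap.

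Desmoplakin, the plakin of desmosomes, moved the other way. DSP (ENSG00000096696; chromosome 6, 7541575 to 7586717, plus strand) had 727, 704, 739 and 728 CPM with DMSO, and 555, 496, 579 and 521 CPM with dTAGV1. All dTAGV1 libraries were lower, and the DMSO libraries had an SD of 14.8 CPM. DSP had a log2 fold change of -0.43 ± 0.07 (SE, edgeR adjusted p = 5.52e-06). In DMSO libraries DSP exceeded MACF1, and in dTAGV1 libraries MACF1 exceeded DSP, with no overlap of library values in either group.

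Periplakin and envoplakin, which pair with each other in the cornified envelope of stratified epithelia, were low in these cells and fell. PPL (ENSG00000118898; chromosome 16, 4882507 to 4960741, minus strand) stood at 48.1, 40.8, 34.2 and 48.5 CPM with DMSO and at 21.8, 20.5, 24.7 and 26.7 CPM with dTAGV1. PPL had a log2 fold change of -0.86 ± 0.13 (SE, edgeR adjusted p = 5.26e-06). It was -1.03 with only dTAGV1 replicates 1 and 2 kept and -0.73 with only replicates 3 and 4, and was called in both. These fits were added once the data had been seen. EVPL (ENSG00000167880; chromosome 17, 76004502 to 76027452, minus strand) had 33.3, 29.9, 30.7 and 18.1 CPM with DMSO and 9.07, 9.06, 11.8 and 8.75 CPM with dTAGV1. Neither gene had overlapping groups, although DMSO replicate 4 was the low one for EVPL. The log2 fold change of EVPL, -1.53 ± 0.19 (SE, edgeR adjusted p = 1.66e-07), was the largest decrease of the 9 genes and rests on 30 to 40 counts in each dTAGV1 library. SEC14L5 overlaps PPL on the opposite strand in GENCODE 29. Opposite-strand reads at PPL summed to 32 over the DMSO libraries and 106 over the dTAGV1 libraries, while reads on its own strand summed to 669 and 342. With counts irrespective of strand the log2 fold change of PPL was thus -0.57 (edgeR, adjusted p = 0.000256).

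Plectin, the widely expressed linker of filaments to hemidesmosomes, did not pass the test. PLEC (ENSG00000178209; chromosome 8, 143915147 to 143976734, minus strand) had 72.4, 71.6, 89.4 and 96.4 CPM with DMSO, and 76.2, 85.2, 56.0 and 51.3 CPM with dTAGV1. dTAGV1 replicates 1 and 2 lay inside the DMSO range, and replicates 3 and 4, the libraries with fewer unmapped reads, lay below it. The log2 fold change was -0.30 with a 95% interval of -0.64 to 0.03 (edgeR, adjusted p = 0.11). With only dTAGV1 replicates 1 and 2 kept it was -0.05 (edgeR, adjusted p = 0.752), and with only replicates 3 and 4 it was -0.62 (edgeR, adjusted p = 0.000199). Both fits were added once the data had been seen, and their difference restates the order of the libraries without testing it. Without dTAGV1 replicate 2 alone the log2 fold change of PLEC passed at -0.45 (edgeR, adjusted p = 0.00823). The part of the unmapped reads in this was not tested.

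Epiplakin, the gene around which the set was drawn, had 158, 223, 205 and 190 counts in DMSO replicates 1 to 4 and 7, 26, 12 and 18 counts in dTAGV1 replicates 1 to 4. EPPK1 (ENSG00000261150; chromosome 8, 143857324 to 143878464, minus strand) thus went from 43.2, 53.8, 54.7 and 47.0 CPM to 1.98, 7.85, 3.54 and 4.26 CPM. This was a log2 fold change of -3.50 ± 0.21 (SE), or 11.3-fold lower, with 24 tested genes below it. Among called genes with a symbol and a mean of at least 10 CPM it lay between DHRS2 at -3.55 and ADAM19 at -3.13. This place restates how EPPK1 was chosen and is no test of it. With single libraries left out the log2 fold change of EPPK1 lay between -3.91 and -3.27. As these fits share the libraries on which EPPK1 was chosen, they do not test its direction. The 3′ part of EPPK1 holds near-identical repeats, and reads that fit more than 1 place are not in these counts. In dTAGV1 libraries EPPK1 was the lowest of the 10, below EVPL, whereas with DMSO it lay above EVPL and overlapped PPL.

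**Figure D2:**
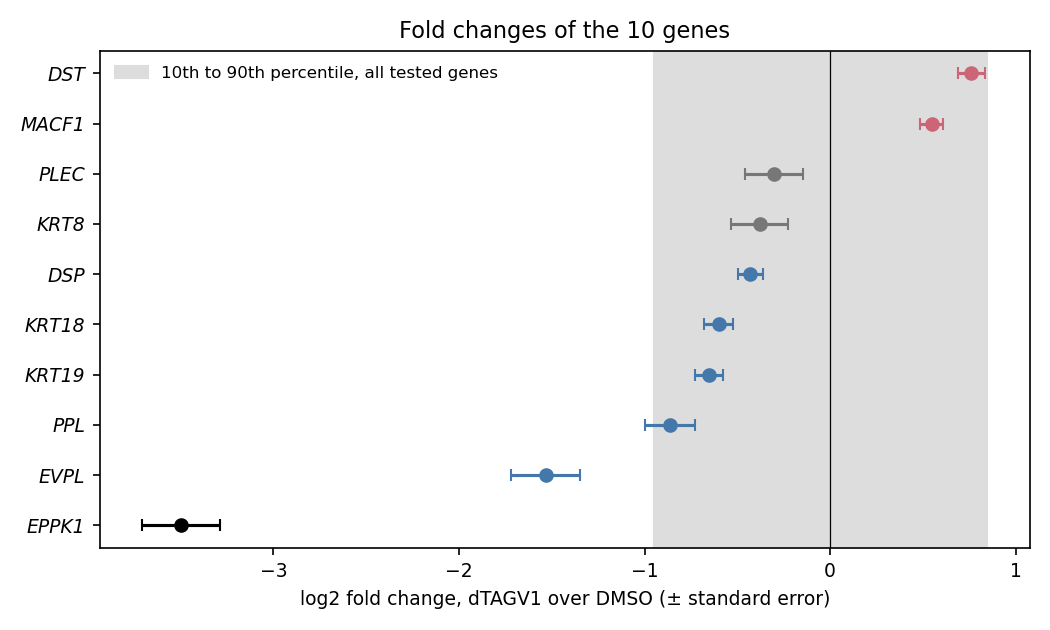
Log2 fold change of each gene, dTAGV1 over DMSO (horizontal axis), with its standard error, ordered by value. Red and blue points passed the test as higher or lower, grey points did not, the black point (EPPK1) is shown without a test, and the grey band spans the 10th to 90th percentile of all tested genes, from -0.95 to 0.85. EVPL and EPPK1 lie outside the band.

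EPPK1 and PLEC lie 36.7 kb apart on the same strand. Annotation lists 16 other genes within 100 kb of either, of which 14 had too few counts to be tested. NRBP2, 16.4 kb from EPPK1, had 5.64 ± 0.878 CPM with DMSO and 2.75 ± 0.513 with dTAGV1 (mean ± SD of 4 libraries) and was lower at -1.02 on the log2 scale (edgeR, adjusted p = 0.00358). GRINA, 13.3 kb from PLEC, had 123 ± 10.2 and 113 ± 9.79 CPM (SD, n = 4 each) and was not called (edgeR, adjusted p = 0.238). The 3 profiles nearest to EPPK1 among 9247 genes, by the root mean square distance of centred log2 CPM over the 8 libraries, were those of DHRS2, a short-chain dehydrogenase (0.46), RTL6, a gene derived from a retrotransposon (0.48), and PCLAF, which encodes a PCNA-binding protein (0.52). None of these is on chromosome 8: they are on chromosomes 14, 22 and 15. PCLAF had 9.92, 20.2, 26.8 and 31.7 CPM in dTAGV1 replicates 1 to 4, with replicates 1 and 2 below replicates 3 and 4. RTL6 went from 32.6 to 5.18 CPM and, as EPPK1 did, had its lowest CPM values in dTAGV1 replicates 1 and 3. It had only 11, 28, 11 and 25 counts in dTAGV1 replicates 1 to 4. The 3 genes were picked for their likeness to EPPK1, so a shared decrease or order of libraries follows from that choice.

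The type I keratins fell by similar amounts. KRT19 (ENSG00000171345; chromosome 17, 41523617 to 41528308, minus strand), the smallest keratin, which lacks most of the tail domain, had 882, 671, 806 and 783 CPM with DMSO and 497, 516, 493 and 491 CPM with dTAGV1. KRT19 had a log2 fold change of -0.65 ± 0.07 (SE, edgeR adjusted p = 5.14e-08). KRT18 (ENSG00000111057; chromosome 12, 52948871 to 52952901, plus strand), the usual partner of KRT8, had 408, 389, 420 and 416 CPM with DMSO and 223, 264, 285 and 305 CPM with dTAGV1. No dTAGV1 library reached the DMSO range of either gene. KRT18 had a log2 fold change of -0.60 ± 0.08 (SE, edgeR adjusted p = 6.02e-07). KRT19 was 65.7% ± 2.08 of the summed counts of KRT18 and KRT19 with DMSO and 65.1% ± 3.20 with dTAGV1 (mean ± SD of 4 libraries each), a difference smaller than the spread between replicates.

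KRT8, the type II partner of both, was less abundant in these counts and more variable. KRT8 (ENSG00000170421; chromosome 12, 52897187 to 52949954, minus strand) stood at 137, 159, 208 and 194 CPM with DMSO and at 158, 151, 125 and 105 CPM with dTAGV1. Libraries of the groups overlapped, with DMSO replicate 1 and dTAGV1 replicates 1 and 2 in the shared range. The log2 fold change was -0.38 with a 95% interval of -0.72 to -0.04 (edgeR, adjusted p = 0.0544), just above the threshold of 0.05. Leaving out DMSO replicate 1 or 2, or dTAGV1 replicate 1 or 2, brought it past the threshold, at -0.48, -0.43, -0.47 and -0.45. With only dTAGV1 replicates 1 and 2 kept it was -0.20 (edgeR, adjusted p = 0.273), and with only replicates 3 and 4 it was -0.61 (edgeR, adjusted p = 0.0185). Both fits were added once the data had been seen and do not test the split. The order of the dTAGV1 libraries in KRT8 was the reverse of that in KRT18, where replicate 1 was lowest and replicate 4 highest. In the same later fits KRT18 had a log2 fold change of -0.76 with only dTAGV1 replicates 1 and 2 kept and -0.47 with only replicates 3 and 4, and was called in both. Unmapped reads moved with KRT8 and against KRT18 across these 4 libraries, and their part was not tested. KRT8 therefore made up 17.9%, 16.2%, 13.9% and 11.6% of the summed counts of the 3 keratins in dTAGV1 replicates 1 to 4, against 9.61% to 14.5% with DMSO. Summed over KRT8, KRT18 and KRT19, the level went from 1369 ± 102 to 903 ± 21.6 CPM (mean ± SD of 4 libraries), without overlap.

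**Figure D3:**
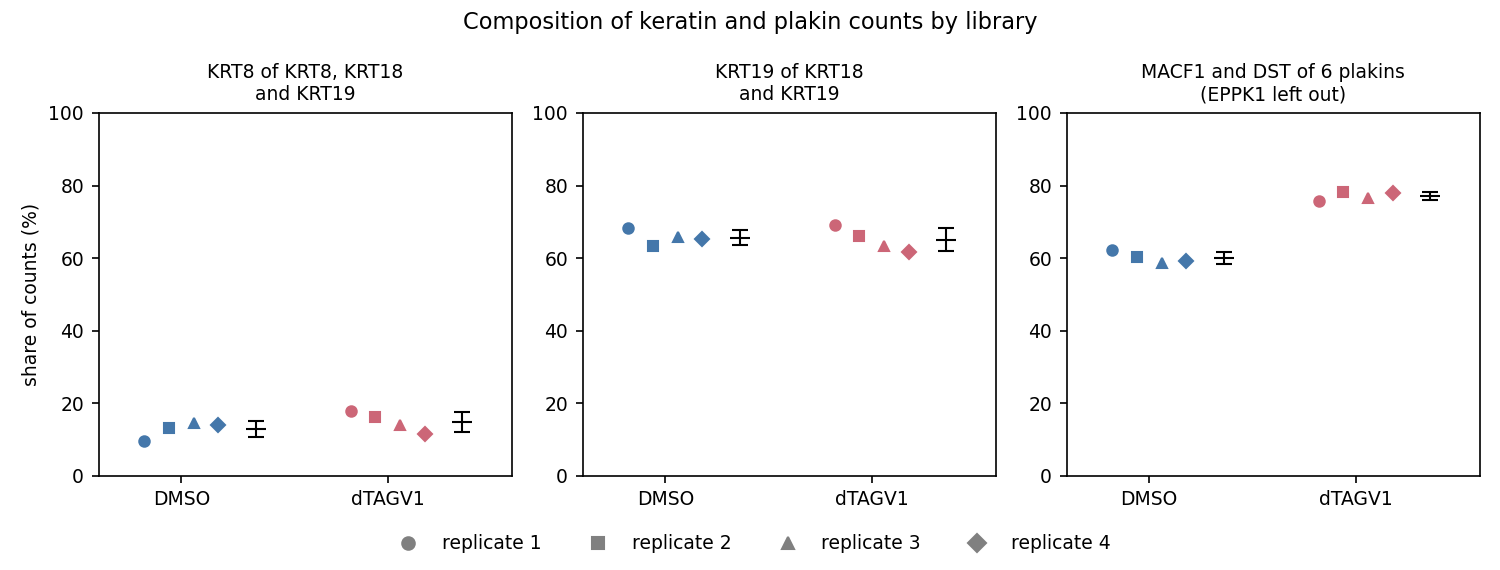
Share of counts in percent (vertical axes, 0 to 100) in each library for KRT8 among the 3 keratins, KRT19 among the type I keratins, and MACF1 with DST among the 6 plakins other than EPPK1. Points are libraries and bars are mean ± SD. The groups overlap in both keratin shares and are apart in the plakin share, at 58.7% to 62.4% and 75.6% to 78.2%.

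Keratin counts depended on the strand setting more than those of the plakins. KRT8 and KRT18 lie on opposite strands with annotated spans that overlap by 1084 bases. The overlap is at the annotated 5′ ends of both genes, and the windows of their 3′ signals given above lie outside it. Its part in the loss of counts was not tested. Counted irrespective of strand, KRT18 kept 4.53% of its DMSO counts and KRT8 kept 55.7%. KRT19 kept 45.4%, although GENCODE 29 lists no gene that overlaps it, and the annotation the authors counted on is not given in the sources used here. In the same counts 6 of the 7 plakins kept 99.5% to 100.2% in both groups, and PPL reached 131% with dTAGV1. Log2 fold changes in those counts were -0.64 for KRT18, -0.64 for KRT19 and -0.17 for KRT8 (edgeR, adjusted p = 0.636 for KRT8). The value of KRT18 rests on only 288 counts summed over the DMSO libraries and 173 over the dTAGV1 libraries. It had a standard error of 0.17 (edgeR, adjusted p = 0.00225). Both KRT8 and KRT18 have many processed pseudogenes, to which reads can map as well as to the parent gene. Of 124 pseudogene identifiers of the 3 keratins, 26 had a count, and their summed level was 30.4 to 43.2 CPM with DMSO and 28.3 to 31.7 CPM with dTAGV1. Only 3 were tested, and the most abundant, KRT18P8, fell from 20.7 ± 2.80 to 13.6 ± 0.966 CPM (SD, n = 4 each). Values of KRT8 and KRT18 are uncertain to the extent that reads were lost to several loci, and more so for KRT18P8.

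**Figure D4:**
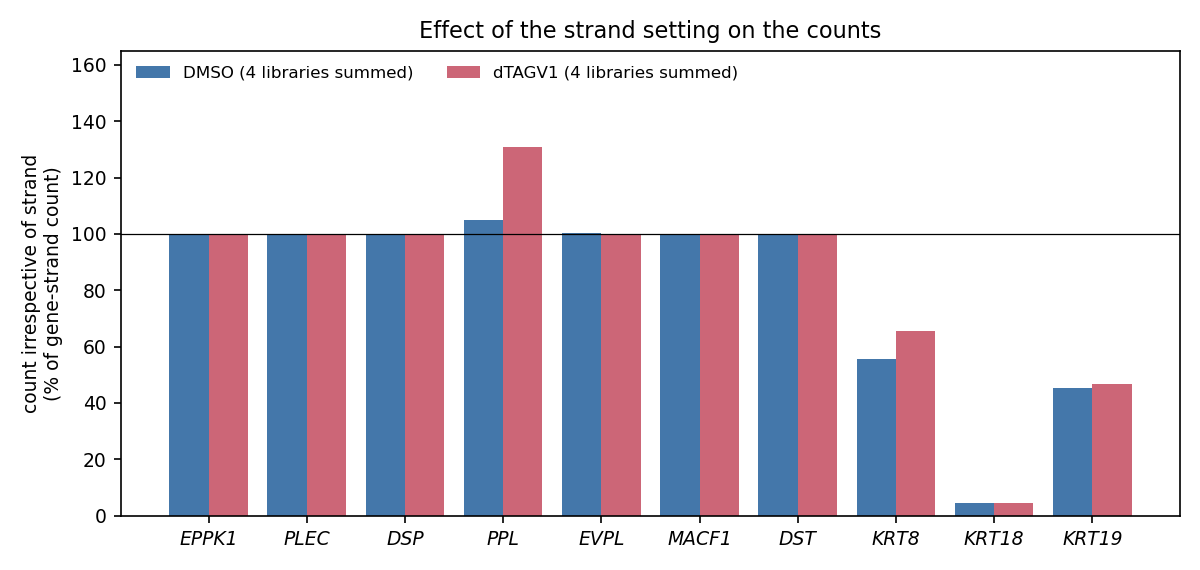
Counts irrespective of strand as a percent of counts on the gene's strand (vertical axis), summed over the 4 libraries of each group. Bars below 100 show counts lost, and bars above 100 counts gained, when strand is ignored. KRT18 is at 4.53% with DMSO and PPL at 131% with dTAGV1.

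In level, the 10 genes ordered as DST, KRT19, DSP, MACF1, KRT18, KRT8, PLEC, EPPK1, PPL and EVPL with DMSO. Neighbours whose library values overlapped were DST and KRT19, KRT19 and DSP, and EPPK1 and PPL. With dTAGV1 the order was DST, MACF1, DSP, KRT19, KRT18, KRT8, PLEC, PPL, EVPL and EPPK1, and DSP and KRT19 were the neighbours that overlapped. The summed level of DSP, PPL, EVPL and PLEC went from 878 ± 21.8 to 638 ± 33.5 CPM (mean ± SD of 4 libraries), without overlap.

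Desmosomes are the junctions where DSP meets the plakoglobin and plakophilin plaque and the desmosomal cadherins. Of 13 desmosome genes 8 were tested, and 5 were higher and 3 lower, with a median log2 fold change of 0.37. Over all tested genes 29.4% were called higher and 28.5% lower, and the median was 0.01. Without DMSO replicate 3 or without dTAGV1 replicate 3 only 3 were higher. The cadherins DSG2 (log2 fold change 0.55), DSC2 (0.44) and DSC3 (0.37) rose, as did plakophilin PKP2 (0.38) and PERP (0.86), a membrane protein needed for desmosome assembly. PERP went from 486 ± 23.9 to 883 ± 93.2 CPM (SD, n = 4 each). Those that fell were plaque genes: PKP3 (-1.03), PKP4 (-0.90) and plakoglobin JUP (-0.45), which binds DSP. The summed level of the list was 1180.0 to 1271 CPM with DMSO and 1488 to 1664 CPM with dTAGV1.

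At hemidesmosomes, which hold keratin to the basement membrane through PLEC and the integrin of ITGA6 and ITGB4, 4 of 6 genes were higher and 1 lower, with a median log2 fold change of 0.60, beside 29.4% higher and 28.5% lower of all tested genes. The laminin genes LAMB3 and LAMA3 rose by log2 fold changes of 1.11 and 0.93. LAMB3 went from 36.6 ± 4.29 to 79.2 ± 6.27 CPM (SD, n = 4 each, edgeR adjusted p = 1.74e-09). COL17A1, a transmembrane collagen of hemidesmosomes, rose by 1.10 and ITGA6 by 0.27. Its partner ITGB4, the subunit that binds plectin, fell by 0.46 on the log2 scale, and CD151 was not called at 0.01.

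Of 67 identifiers of other keratins 20 had a count and 6 were tested. Of these 4 were higher and 1 lower, with a median log2 fold change of 0.62, beside 29.4% higher and 28.5% lower of all tested genes. KRT10, the most abundant of them, rose by 0.42 on the log2 scale, from 94.4 ± 11.9 to 126 ± 5.08 CPM (mean ± SD of 4 libraries, edgeR adjusted p = 0.000205). With dTAGV1 it stood at 130.4, 125, 130.2 and 119.7 CPM, above KRT8 in replicates 3 and 4 and below it in replicates 1 and 2. KRT15 rose by a log2 fold change of 1.08, KRT7 by 1.39 and KRT222 by 0.60, at means below 20 CPM in both groups, and the hair keratin KRT81 had a log2 fold change of -1.84 from 4.29 ± 0.38 CPM (SD, n = 4).

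Of 7 other intermediate filament genes tested, 1 was higher and 5 lower, with a median log2 fold change of -0.83, beside 29.4% higher and 28.5% lower of all tested genes. The lamins, which form the nuclear lamina, all fell, with log2 fold changes of -2.10 for LMNB1, -0.83 for LMNA and -0.66 for LMNB2. LMNA varied among the dTAGV1 libraries, at 373, 459, 269 and 237 CPM in replicates 1 to 4, against 540.0 to 627 CPM with DMSO. NES (-0.89) and PRPH (-1.72) were also lower and SYNM (0.94) higher, and the mesenchymal filament gene VIM, at a log2 fold change of -0.10, was not called. Of 8 microtubule-end partners of spectraplakins, CLASP1 (0.50), which stabilises growing ends, and CAMSAP2 (0.32), which binds minus ends, were higher. MAPRE1 (-0.58), which encodes the plus-end protein EB1, was lower and 5 were not called, with a median of -0.06, against the same shares of all tested genes. Among 8 cornified envelope genes 2 had a count and 0 passed the filter, so the partners of PPL and EVPL in that structure could not be tested. Their summed level was at most 0.273 CPM in a DMSO library and 0.283 CPM in a dTAGV1 library.

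**Figure D5:**
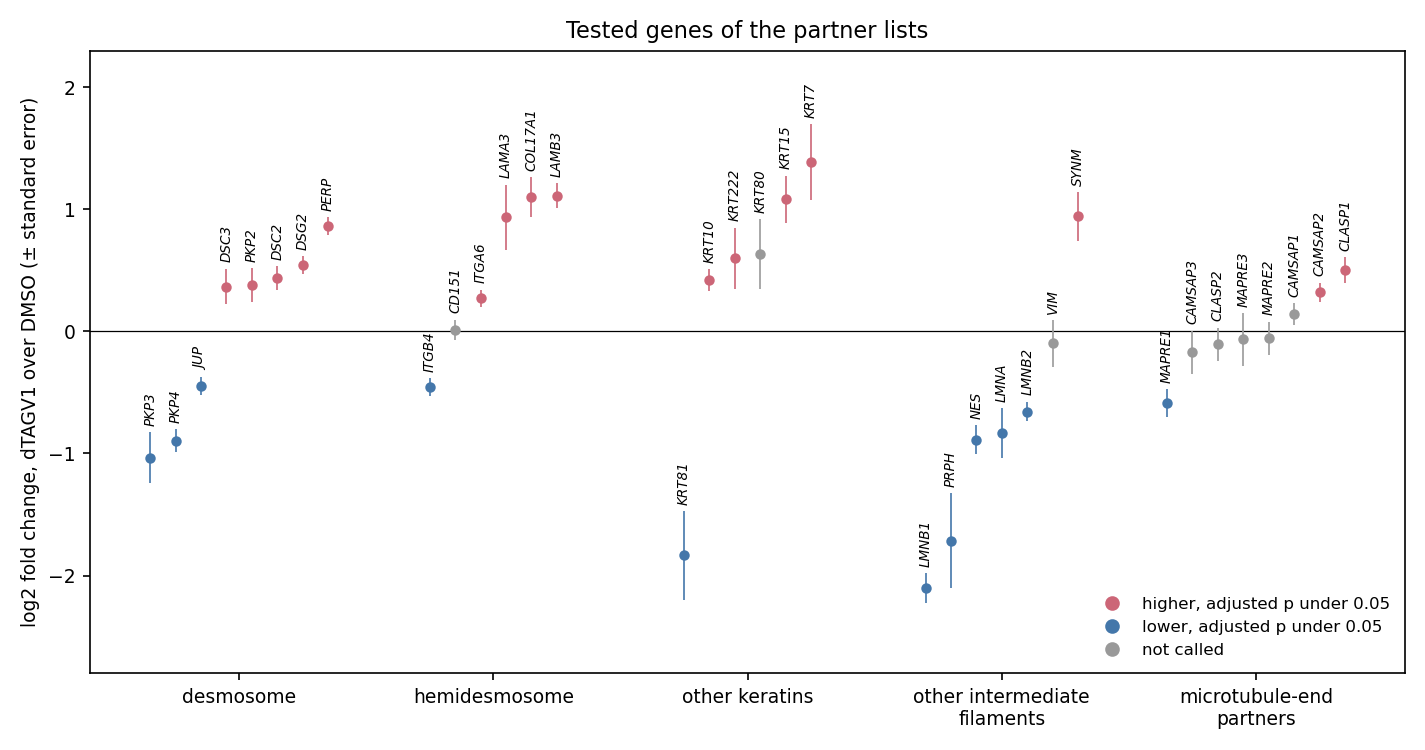
Log2 fold change, dTAGV1 over DMSO (vertical axis, with standard errors), of the tested genes of 5 partner lists, ordered by value within a list. Red and blue points passed the test as higher or lower and grey points did not. The 3 desmosome genes that fell are PKP3, PKP4 and JUP, and the laminin genes LAMA3 and LAMB3 lie above 0.9.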

How the data were processed

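Poly(A) RNA of 8 libraries was profiled with a Lexogen QuantSeq forward kit for 3′ ends, per the labels' protocols. The authors deposited whole-number counts per gene, unnormalized, in 3 columns: irrespective of strand, on the gene's strand and on the opposite strand. FastQC, fastp, STAR, HTSeq and DESeq2 and the build GRCh38 are named in the submitters' processing notes, while versions, annotation and use of molecular identifiers are not given in the sources used here. The counts on the gene's strand were used, since they exceeded the opposite strand by 8.28 to 8.48 times. Totals given to no gene, 56.7% to 62.8% of reads, stayed out of library sizes. Symbols came from a table of names (61481 of 78932 identifiers), and coordinates from GENCODE 29, which is not stated to be the authors' annotation.

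Groups were compared with edgeR 4.0.16 in R 4.3.3 (filterByExpr, TMM, robust quasi-likelihood F test, Benjamini-Hochberg adjustment over all tested genes, threshold 0.05), after the script was tested on simulated data. Standard errors are the log2 fold change divided by the square root of F, and 95% intervals use the t distribution with the fit's degrees of freedom. Alternatives were DESeq2 1.42.0, limma-voom (limma 3.58.1), RLE and library-size scaling, other filters, counts irrespective of strand, a replicate block and leaving out libraries. Fits that kept only 2 of the 4 dTAGV1 libraries were added once the data had been seen. Replicates within a group differed by more than sampling noise (chi-square over genes divided by its degrees of freedom, 1.82 to 5.09).

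Members and lists were chosen with earlier results of these data known. Named were the 10 members, NUDT21 and the called genes of each partner list at any level, apart from the keratin pseudogenes. Of those, KRT18P8 and KRT18P61 were named. Also named were the 3 profiles nearest to EPPK1, the genes ranked beside it, and tested neighbours of EPPK1 and PLEC. VIM, CD151 and the cell type markers were named beside them. 1 gene of the hemidesmosome list is not reported here, and counts and medians of that list leave it out.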

Additional observations from a re-analysis of the deposited data

Results flagged for a closer look

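Of 30 groups of 4 libraries checked (the 10 genes, NUDT21, the 3 shares and the keratin sum, in each treatment), 1 held a library far from the others. EVPL was at 11.78 CPM in dTAGV1 replicate 3 and at 8.75 to 9.07 CPM in the other dTAGV1 libraries, a gap of 0.895 of the group's range, past Dixon's 95% critical value for 4 samples. A gap of this kind arises by chance in about 1 in 20 groups. The value in dTAGV1 replicate 3 remained below the lowest DMSO library, at 18.1 CPM.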

How the results depend on the processing

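The calls of DSP, PPL, EVPL, MACF1, DST, KRT18 and KRT19 were the same in every alternative in which the gene was tested. EPPK1 was lower in each as well, which is no test of it, since its decrease chose it. PLEC passed in 5 of 18 alternatives (log2 fold change -0.62 to -0.33) and KRT8 in 11 of 18 (-0.61 to -0.38), so the number of lower genes among the 9 ran from 5 to 7. The causes were not tested, except that fewer genes were tested under a mean of at least 100 counts, with 4120 genes called. That filter left 3 desmosome and 2 hemidesmosome genes higher, 0 other filament genes higher, 1 other keratin higher and 0 lower, and 0 keratin pseudogenes in either direction. Desmosome genes called higher numbered 3 with library-size scaling, DESeq2 or only dTAGV1 replicates 1 and 2, and 3 to 5 with single libraries left out, the lowest without DMSO replicate 3 or dTAGV1 replicate 3. With counts irrespective of strand 0 other filament genes were higher, and the difference in the share of KRT8 moved from 2.15 to 5.85 points. The pseudogene called higher, KRT18P61, was lost (0) without a filter, with DESeq2, with either pair of dTAGV1 libraries, and in 5 of the fits without 1 library (0 to 1). Without DMSO replicate 1 or dTAGV1 replicate 4 the difference in the share of KRT19, -0.60 points, changed sign to 0.30 and 0.52, over a range of -1.91 to 0.52. Library-size scaling lowered the share of calls that are higher from 50.8% to 43.8%.

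Replicate numbers are shared by the groups, but deviations of same-numbered libraries correlated at 0.131, -0.018, 0.023 and 0.034, so they were not taken to pair the libraries. With a replicate block, 7434 genes were called in place of 7302, 2 of the 9 genes were higher and 5 lower, and PLEC and KRT8 were at -0.31 and -0.38. Counts of 7 to 40 in EPPK1 and EVPL limit the precision of their dTAGV1 levels.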
